A study of Mus musculus with 6 samples.

Results

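The genes described here encode Wnt ligands, the receptors that bind them and the secreted proteins that limit or enhance their action. The families were chosen with earlier results of these data known, so their shares below describe the set and do not test it. Members were then taken by a rule on gene symbols: the Wnt, Fzd, Sfrp, Dkk and Rspo families, together with Frzb, Wif1, Lrp5, Lrp6, Lgr4, Lgr5 and Lgr6. All 48 genes found by this rule were among the 19938 genes measured, each taken at the probe set with the highest mean signal. Stomach RNA of mouse embryos at stage E13.5 was hybridised to 6 Affymetrix arrays. The 3 wild type arrays carry no stated transgene. The 3 arrays labelled SmoM2 mutant come from stomachs of genotype Nkx3.2Cre;R26-SmoM2, in which Cre recombinase driven by Nkx3-2 switches on SmoM2, an active form of the hedgehog transducer Smoothened, from the Rosa26 locus. Nkx3-2 is a gene of the stomach mesenchyme, so the hedgehog pathway is switched on from within that layer, whereas each array measured the whole organ with its epithelium, muscle, nerves and vessels. Whether the replicates came from separate embryos, litters or pools is not stated, and the p-values therefore rest on the scatter of these 6 arrays, which may partly be technical. In RNA of a whole organ, fewer cells of a type and less RNA per cell cannot be told apart.

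Wnt proteins are secreted lipid-modified ligands that bind Frizzled receptors. Together with the coreceptors Lrp5 or Lrp6 they stabilise beta-catenin, which acts with TCF/LEF factors on transcription, and through other receptors they direct cell polarity and movement. Secreted Frizzled-related proteins, Frzb and Wif1 bind the ligands, Dkk proteins bind the coreceptors, and R-spondins act through Lgr4, Lgr5 and Lgr6 to keep receptors on the cell surface. In the developing stomach, mesenchymal inhibitors of Wnt signalling are known to help set stomach against intestinal identity.

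None of the 48 genes passed the threshold in either direction (limma, adjusted p under 0.05 over all genes), where 0.983% of all genes did (0.326% higher and 0.657% lower in SmoM2). At an unadjusted p under 0.05 there were 10, 5 higher and 5 lower in SmoM2, which is 20.8% of the 48 against 10.5% of all genes (3.29% higher and 7.24% lower). In 11 of the 48 genes the arrays of the 2 groups did not overlap (6 higher and 5 lower in SmoM2), 22.9% against 15.7% of all genes. The median size of change was 0.10 on the log2 scale against 0.07 over all genes, and the median within-group SD was 0.11 against 0.10. The signed median was 0.040 for the 48, with 34 above 0, and 0.00 for all genes, with 50.8% above 0. It ran from 0.011 without wild type 2 to 0.081 without SmoM2 2, with 0.026 without SmoM2 1 and 0.069 without wild type 3. With a Y-linked covariate (the mean signal of Y-linked genes) its sign turned (-0.013, with 23 of 48 above 0). That covariate partly follows the groups, at 10.37, 9.92 and 9.07 in wild type and 8.71, 8.94 and 9.27 in SmoM2. Its part in a change and that of genotype therefore cannot be fully told apart. The 95% interval of each of the 48 changes stayed within 1.5-fold in either direction, as did that of 19322 of all 19938 genes. The largest bound among the 48, for Dkk1, was 0.54. An exact two-sided permutation test of 3 against 3 arrays cannot give less than 0.1.

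**Figure D1:**
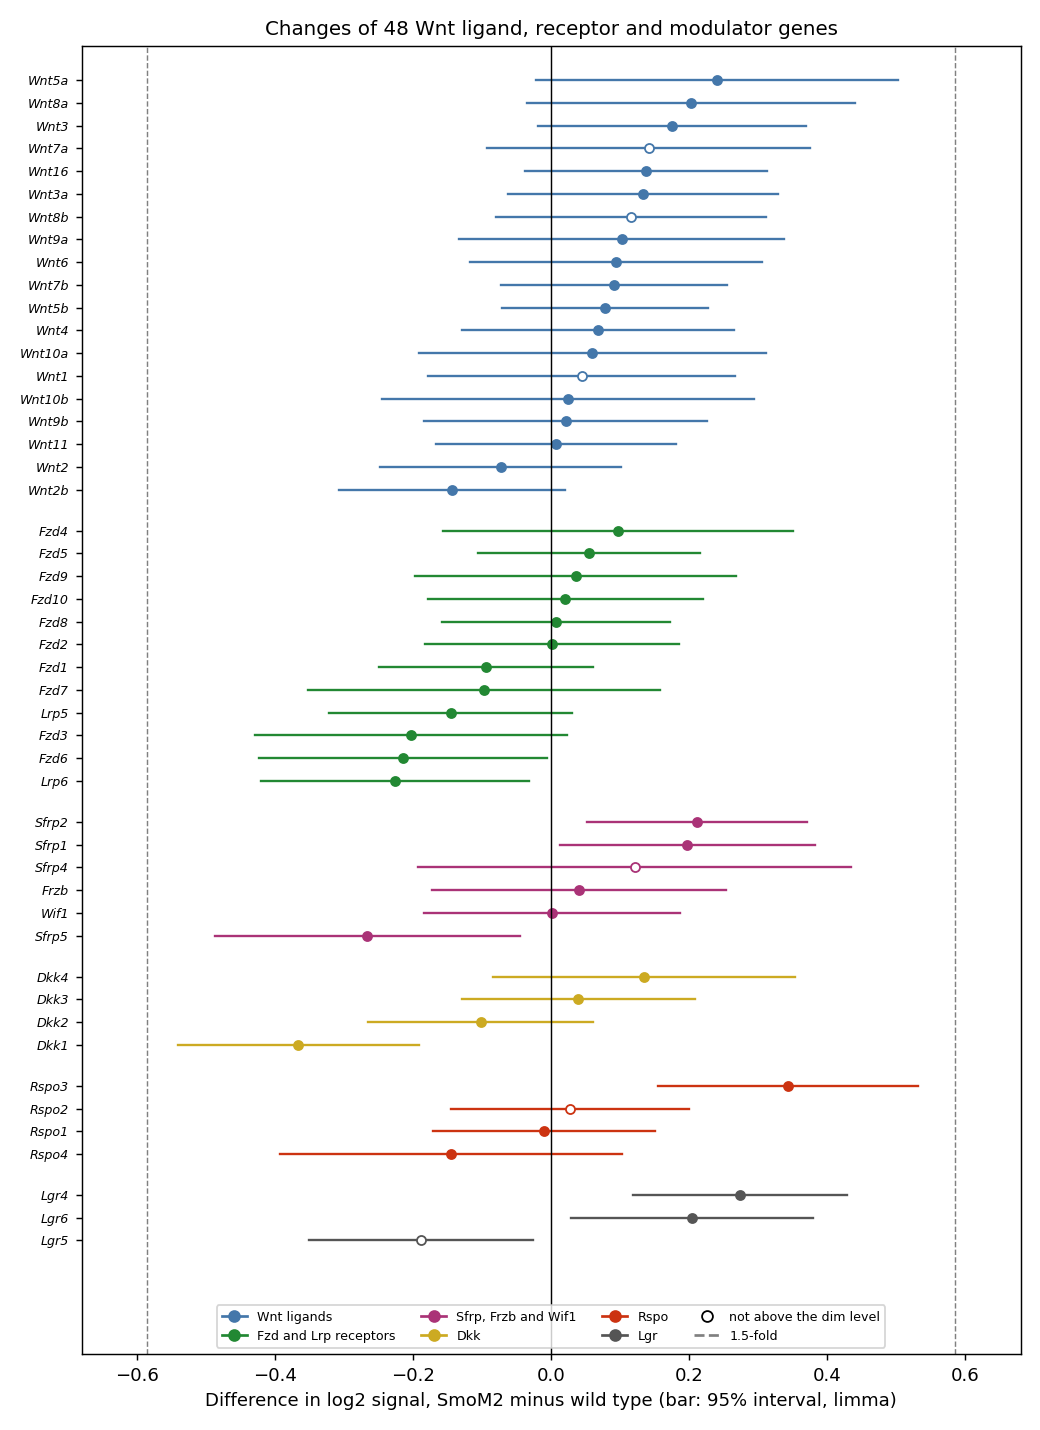
Difference in log2 signal between SmoM2 and wild type (SmoM2 minus wild type, horizontal axis) for each of the 48 genes, with bars for the 95% interval from limma, grouped by role. Open circles mark genes not above the dim level and dashed lines mark 1.5-fold. Dkk1 lies farthest to the left (-0.37) and Rspo3 farthest to the right (0.34), and no interval reaches the dashed lines.

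Of 5 genes read as a check of the hedgehog pathway, 2 rose and 0 fell past the threshold in the arrays labelled SmoM2. Over all genes 0.326% rose and 0.657% fell. Hhip, a hedgehog-binding membrane protein, rose 2.43-fold (adjusted p = 0.000175), and Ptch1, the hedgehog receptor, rose 1.40-fold (adjusted p = 0.0174). Gli1, Smo and Nkx3-2 did not pass the threshold, with changes of 0.42, 0.35 and -0.12 (adjusted p = 0.0727, 0.154 and 0.648). Ptch1 had an adjusted p of 0.102, 0.0745 and 0.0749 without wild type 1, wild type 2 or SmoM2 3, and over the alternatives it ran from 0.00102 to 0.325. All 8 markers of stomach mesenchyme examined, among them Barx1 and Foxf1, and all 12 of epithelium were above the dim level, the 95th percentile of the mean signal of 1194 olfactory and vomeronasal receptor genes (8.05, log2). Of all 19938 genes 14132 were above the dim level, so a place above it does not by itself show that a gene is expressed. Xist was at 7.11 in wild type 1 and between 11.43 and 12.37 in the other arrays. The mean of 3 Y-linked genes ran from 9.07 to 10.37 in wild type and from 8.71 to 9.27 in SmoM2. With that mean as a covariate 14 genes of the whole series were higher and 8 lower, against 65 and 131.

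Wnt ligands showed small differences. Of the 19, 16 were above the dim level, and Wnt1, Wnt7a and Wnt8b were not. Wnt5a, a ligand best known for signalling that does not use beta-catenin, had the largest difference. Its log2 signal was 10.39, 10.81 and 10.65 in wild type 1, 2 and 3 and 10.72, 10.82 and 11.03 in SmoM2 1, 2 and 3. Wild type 1 was the lowest and SmoM2 3 the highest, and the groups overlapped (change 0.24, SE 0.12, adjusted p = 0.527). The change was 0.13 without wild type 1 and 0.16 without SmoM2 3. Wnt2b, a ligand made by gut mesenchyme, ran the other way, from 9.89, 9.91 and 9.88 in wild type to 9.64, 9.84 and 9.77 in SmoM2. These groups did not overlap, and the difference of -0.14 did not pass the threshold (adjusted p = 0.561), and it was -0.09 without SmoM2 1. In Wnt5b the groups also did not overlap, with a change of 0.08 (adjusted p = 0.780). Wnt8a stood at 0.20 (adjusted p = 0.572), set by SmoM2 1 at 8.89 while the other 5 arrays lay between 8.37 and 8.57, and was 0.08 without that array. The other ligands ran from -0.07 for Wnt2 to 0.18 for Wnt3, with adjusted p from 0.538 to 0.990. Wnt4 was the 1 gene of the 48 with a second probe set, which gave a difference of 0.04 where the first gave 0.07.

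As a class the ligands had 17 of 19 changes above 0 with a median of 0.09, where 50.8% of all genes were above 0. In limma 0 of 19 were at an unadjusted p under 0.05, against 10.5% of all genes. The median deviation of the ligands from their own means was -0.06, -0.14 and 0.05 in wild type 1, 2 and 3, and 0.11, -0.05 and 0.03 in SmoM2 1, 2 and 3. The olfactory and vomeronasal receptor genes, which the stomach is not known to use, deviated by 0.00, -0.08 and 0.05 in wild type and by 0.12, -0.08 and -0.01 in SmoM2. Wild type 2 and SmoM2 2 were thus low, and wild type 3 and SmoM2 1 high, in both sets of genes. In wild type 1 and SmoM2 3 the ligands deviated by -0.06 and 0.03, and the receptor genes by 0.00 and -0.01. Of these receptor genes 61.5% had a change above 0 with a median of 0.02. The ligand median was 0.03 with 13 of 19 above 0 without SmoM2 1, 0.05 with 14 of 19 without wild type 2, 0.16 with 16 of 19 without wild type 3, and 0.02 with 11 of 19 with the Y-linked covariate. It stayed above 0, with 17 of 19, under repeated quantile normalization and under centring on the median or the 75th percentile. With the median of the receptor genes as a covariate it was 0.085, against 0.091 without it, and 17 of 19 were above 0. This covariate was chosen after the data were seen.

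**Figure D2:**
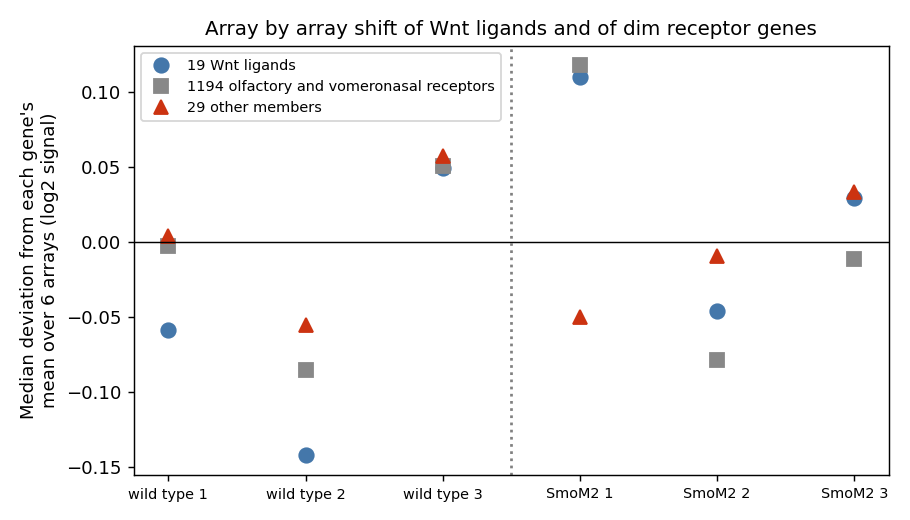
Median deviation of each gene from its own mean over the 6 arrays (log2 signal, vertical axis) in each array, for 19 Wnt ligands (circles), 1194 olfactory and vomeronasal receptor genes (squares) and the other 29 of the 48 genes (triangles). SmoM2 1 is highest for ligands (0.11) and for receptor genes (0.12), and wild type 2 is lowest for both (-0.14 and -0.08).

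The genome places 8 of the ligands in 4 pairs with no protein-coding gene between the partners in the RefSeq table of assembly GRCm38.p6. These are Wnt6 with Wnt10a, Wnt3a with Wnt9a, Wnt9b with Wnt3, and Wnt10b with Wnt1. The changes of these 8 lay between 0.02 for Wnt9b and 0.18 for Wnt3, and none passed the threshold.

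Promoter windows were available for 31 of the 48 genes in RefSeq-based tables (GRCm38.p6), 34 windows in all, each reaching from 250 bases before a transcription start to 50 after it. The TCF/LEF motif CTTTGAT, searched on both strands, lay in 2 of the 34, against 3.73% of 32851 windows of all genes. One began 71 bases before a start of Wnt5b and the other 51 bases before that of Wnt11. The Gli motif GACCACCCA, also searched on both strands, lay in 0 of the 34 and in 0.253% of all windows. Both matches to the TCF/LEF motif are shown with their flanks, the match in capitals (for Wnt5b chr6:119449439-119449468, minus strand; for Wnt11 chr7:98835050-98835079, plus strand, where the motif reads on the opposite strand).
Wnt5b: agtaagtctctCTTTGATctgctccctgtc
Wnt11: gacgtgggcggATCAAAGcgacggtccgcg
The motifs do not overlap each other, and a match is a string of letters and not a shown binding site.

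None of the receptors passed the threshold. All 12 Frizzled receptors and Lrp coreceptors were above the dim level, and 6 had a change below 0 and 6 above. Lrp6, a coreceptor needed for the beta-catenin branch, had the largest difference. It was at 11.52, 11.45 and 11.42 in wild type and at 11.06, 11.34 and 11.30 in SmoM2, so that all SmoM2 arrays lay below all wild type arrays and SmoM2 1 lay lowest (change -0.23, SE 0.09, adjusted p = 0.368). The change was -0.14 without SmoM2 1 and -0.13 with the Y-linked covariate. Its partner Lrp5 showed the same order of groups without overlap, 10.51, 10.54 and 10.55 against 10.25, 10.42 and 10.50 (change -0.15, adjusted p = 0.598, and -0.08 without SmoM2 1). Fzd6, a receptor with a role in planar cell polarity, was at 9.69, 9.53 and 9.77 in wild type and at 9.29, 9.55 and 9.51 in SmoM2, where SmoM2 2 overlapped wild type 2 (change -0.21, SE 0.09, adjusted p = 0.457, and -0.14 without SmoM2 1). Fzd3, another polarity receptor, had a change of -0.20 (adjusted p = 0.547), for which SmoM2 1 at 10.39 was the lowest of the 6 arrays. It was -0.09 without that array and -0.07 with the Y-linked covariate. The other Frizzled genes lay between -0.10 for Fzd7 and 0.10 for Fzd4.

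Secreted inhibitors that bind the ligands had differences of both signs, none past the threshold. Sfrp1 and Sfrp2, made by stomach mesenchyme, had their highest values in SmoM2, and Sfrp5, known from foregut endoderm, had its highest in wild type. Sfrp2 was at 10.95, 11.07 and 10.98 in wild type and at 11.20, 11.28 and 11.16 in SmoM2 (change 0.21, SE 0.07, adjusted p = 0.287). Sfrp1 was at 13.30, 13.18 and 13.24 in wild type and at 13.38, 13.35 and 13.59 in SmoM2 (change 0.20, SE 0.08, adjusted p = 0.425). In neither gene did the groups overlap, and SmoM2 3 stood apart as the highest for Sfrp1, whose change was 0.12 without it. Sfrp5 was at 9.48, 9.16 and 9.37 in wild type and at 9.06, 8.95 and 9.19 in SmoM2 (change -0.27, SE 0.10, adjusted p = 0.350), with SmoM2 3 just above wild type 2. Sfrp4 was not above the dim level, and it, Frzb and Wif1 had changes from 0.00 to 0.12.

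Dkk1, which binds Lrp5 and Lrp6 and blocks the beta-catenin branch, had the lowest adjusted p of the 48. It stood at 9.09, 9.29 and 9.11 in wild type and at 8.73, 8.84 and 8.82 in SmoM2. Every SmoM2 array was below every wild type array, by 1.29-fold on average (change -0.37, SE 0.08, 95% interval -0.54 to -0.19, adjusted p = 0.0719). It passed the threshold among genes above the median signal alone (adjusted p = 0.0361) and with a block for replicate number (adjusted p = 0.0124). It also passed with the median of the olfactory and vomeronasal receptor genes as a covariate, chosen after the data were seen (adjusted p = 0.0121). Over the alternatives its adjusted p ran from 0.0121 to 0.714. Dkk2, Dkk3 and Dkk4 lay between -0.10 and 0.13, with adjusted p from 0.716 to 0.921. The 250 bases before the start of Dkk1 (RefSeq, GRCm38.p6, chr19:30549497-30549746, minus strand) are shown because Dkk1 had the largest difference. They hold the letters TATAAA, in capitals, beginning 54 bases before the start. Searched on both strands, these letters lay in 5 of the 34 windows and in 13.6% of all windows.
Dkk1: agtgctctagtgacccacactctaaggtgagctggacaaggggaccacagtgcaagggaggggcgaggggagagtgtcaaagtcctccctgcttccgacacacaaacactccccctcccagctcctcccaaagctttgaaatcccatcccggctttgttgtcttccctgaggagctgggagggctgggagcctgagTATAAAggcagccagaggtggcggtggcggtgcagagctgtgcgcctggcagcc

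R-spondins and their receptors held the largest positive differences. Rspo3, an R-spondin made by mesenchyme, was at 10.54, 10.28 and 10.37 in wild type and at 10.76, 10.80 and 10.66 in SmoM2. All SmoM2 arrays were above all wild type arrays, by 1.27-fold on average (change 0.34, SE 0.08, 95% interval 0.16 to 0.53, adjusted p = 0.117). With a block for replicate number it passed (adjusted p = 0.0271), as it did with the receptor gene covariate, chosen after the data were seen (adjusted p = 0.0442). Over the alternatives its adjusted p ran from 0.0271 to 0.586. Rspo1, Rspo2 and Rspo4 lay between -0.14 and 0.03, and Rspo2 was not above the dim level.

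The 3 R-spondin receptors each had groups that did not overlap, as did 15.7% of all genes. Lgr4, the member of wide tissue distribution, was at 11.78, 11.87 and 11.89 in wild type and at 12.09, 12.18 and 12.09 in SmoM2 (change 0.27, SE 0.07, adjusted p = 0.126). It passed with an intensity trend in the variance prior (adjusted p = 0.0316) and with the receptor gene covariate (adjusted p = 0.0368), within a range over the alternatives of 0.0316 to 1.00. Lgr6 was at 8.88, 8.91 and 9.10 in wild type and at 9.19, 9.11 and 9.20 in SmoM2 (change 0.20, SE 0.08, adjusted p = 0.369), where wild type 3 and SmoM2 2 lay next to each other, and its change was 0.09 with the Y-linked covariate. Lgr5, a marker of stem cells in adult stomach and gut, ran lower, from 8.07, 8.06 and 8.10 to 7.99, 7.89 and 7.79 (change -0.19, SE 0.07, adjusted p = 0.370). Its mean signal was not above the dim level, so its difference is one between dim signals. The 250 bases before the start of Lgr4 (RefSeq, GRCm38.p6, chr2:109917397-109917646, plus strand), the gene with the largest positive difference among those with a window, hold none of the 3 motifs searched.
Lgr4: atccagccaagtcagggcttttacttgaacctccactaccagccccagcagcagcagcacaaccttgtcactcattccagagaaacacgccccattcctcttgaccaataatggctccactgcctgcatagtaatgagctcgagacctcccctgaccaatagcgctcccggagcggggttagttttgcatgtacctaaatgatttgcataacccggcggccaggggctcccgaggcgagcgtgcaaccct

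**Figure D3:**
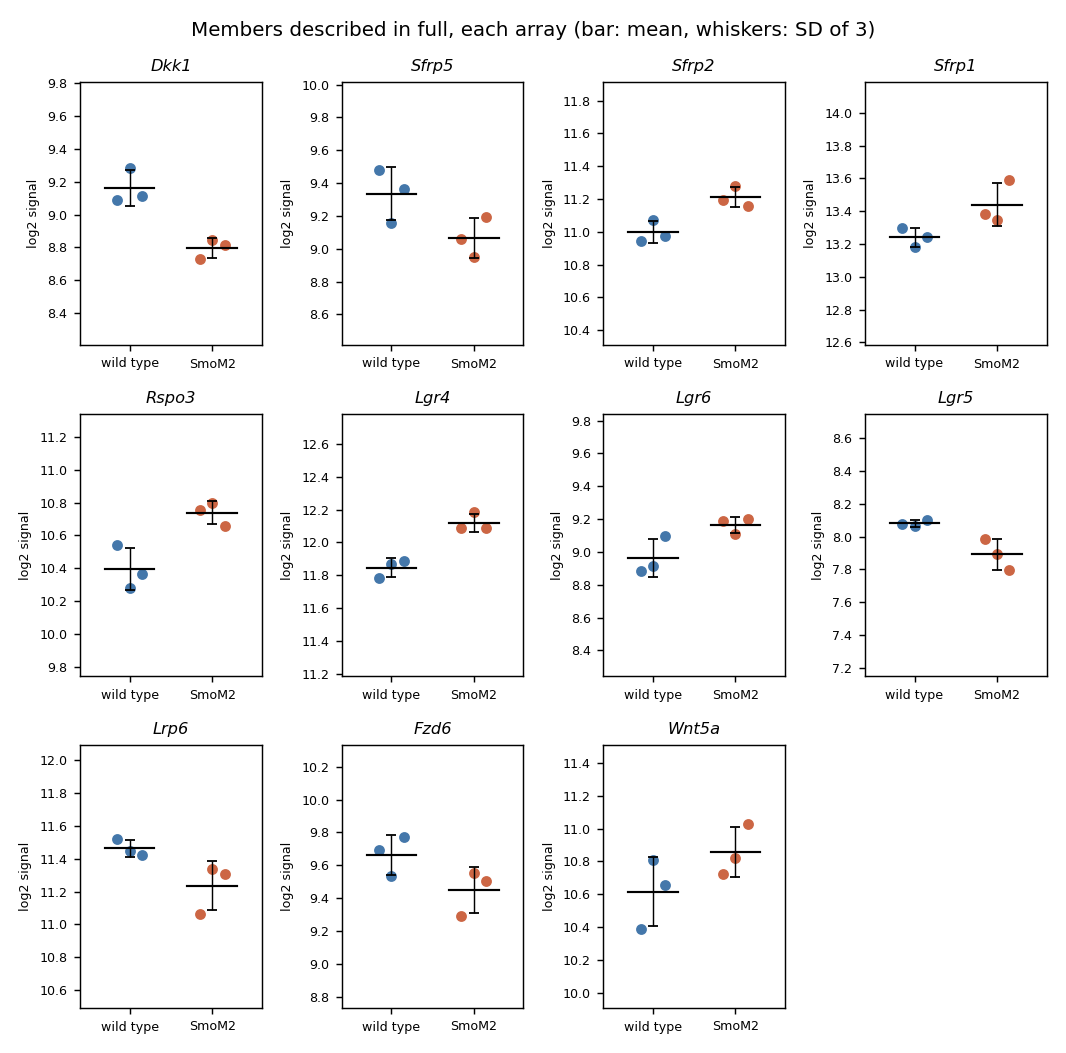
Log2 signal (vertical axis, 1.6 units in each panel) on each array for the 11 genes described in full, with wild type in blue and SmoM2 in orange, horizontal bars for means and whiskers for the SD of 3 arrays. Dkk1, Rspo3, Lgr4, Sfrp1, Sfrp2, Lgr5, Lgr6 and Lrp6 show groups without overlap, and Sfrp5, Fzd6 and Wnt5a show groups that overlap.

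Several lists of cell type markers also differed between the groups. Over all genes 0.326% were higher and 0.657% lower in SmoM2 past the threshold in limma. Of 12 epithelial markers 7 fell and 0 rose, among them Cdh1, which encodes E-cadherin (adjusted p = 0.0111), and the log2 of their summed signal was 14.32 to 14.48 in wild type and 13.81 to 13.95 in SmoM2. Of 9 smooth muscle markers 4 rose and 1 fell (13.60 to 13.69 against 14.00 to 14.26). Myocd, the coactivator of smooth muscle genes, was among those that rose (adjusted p = 0.00111). Des was the 1 that fell (change -0.54, adjusted p = 0.0263), and Tagln did not pass (change 0.15, adjusted p = 0.654). Of 8 mesothelial markers 3 fell and 0 rose (13.61 to 13.64 against 13.36 to 13.49). Of 8 markers of enteric neurons and glia 0 rose and 3 fell, the neuronal genes Dcx, Nefl and Nefm (13.08 to 13.27 against 12.61 to 12.87 for the list). The changes of Sox10, a gene of neural crest and glia, and of Ret were 0.11 and 0.05 (adjusted p = 0.756 and 0.904). Of 5 pancreatic markers 2 fell, Cpa1 and Gcg, and 0 rose (12.79 to 13.29 against 12.14 to 12.26 for the list). Ptf1a, which was not above the dim level, and Ins2 had changes of 0.16 and 0.03 (adjusted p = 0.499 and 0.953). Markers of endothelium, leukocytes and erythroid cells had 0 past the threshold in limma, and each list had a lower summed signal on all SmoM2 arrays. In these lists 3 of 6, 5 of 6 and 2 of 4 were lower at an unadjusted p under 0.05, against 7.24% of all genes. Of 8 mesenchymal markers 2 rose, Foxf1 and Foxf2, and 1 fell, Col1a2 (15.40 to 15.48 against 15.50 to 15.57 for the list). Of 5 liver markers 0 passed in limma, with 2 lower at an unadjusted p under 0.05 (12.86 to 13.66 against 12.64 to 13.67). Single markers were picked for naming with their values known. The part of these cell types in the differences of Dkk1, Sfrp5, Lgr4, Rspo3 and the other genes above was not tested.

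Beyond the 48 genes, Wnt pathway genes were read from 4 lists, which share some members with each other and with the 48. Among 20 genes of Wnt secretion, receptor turnover and further secreted modulators, 1 rose and 0 fell in limma, against 0.326% and 0.657% of all genes. At an unadjusted p under 0.05 there were 2 higher and 2 lower, against 3.29% and 7.24% of all genes. Of the 20 changes 13 were below 0, and 12 under repeated quantile normalization. The gene that rose was Sostdc1, a secreted protein that binds BMP ligands and Lrp coreceptors and limits both pathways. Its log2 signal was 9.16, 9.09 and 9.11 in wild type and 9.87, 9.69 and 9.87 in SmoM2, well apart (1.61-fold, change 0.69, SE 0.08, 95% interval 0.52 to 0.86, adjusted p = 0.00427). It passed without each array in turn (adjusted p from 0.00556 to 0.0482) and did not with the Y-linked covariate (change 0.72, adjusted p = 0.0608, the highest over the alternatives, which began at 2.21e-05). Gpc4, a heparan sulfate proteoglycan of the cell surface that can bind Wnt, was at 9.11, 8.92 and 8.96 in wild type and at 8.65, 8.77 and 8.69 in SmoM2 (change -0.30, adjusted p = 0.135). Wls, the carrier that Wnt ligands need for secretion and named after its value was seen, had a change of -0.17 (adjusted p = 0.510), which was -0.11 without SmoM2 1 and -0.10 with the Y-linked covariate.

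Among 13 receptors and effectors of planar polarity and related branches, 0 rose and 1 fell in limma, against 0.326% and 0.657% of all genes. At an unadjusted p under 0.05 there were 0 higher and 3 lower, against 3.29% and 7.24% of all genes. Of the 13 changes 10 were below 0, and 8 under repeated quantile normalization. Ror1, a receptor tyrosine kinase that binds Wnt5a, fell 1.43-fold, from 11.84, 11.80 and 11.70 in wild type to 11.24, 11.38 and 11.17 in SmoM2 (change -0.52, SE 0.08, adjusted p = 0.0210). The groups were separate by more than their own spread. Without wild type 1, wild type 2, SmoM2 1 or SmoM2 3 its adjusted p was 0.125, 0.0842, 0.0695 and 0.129, and with the Y-linked covariate it was 0.357 (change -0.46), within a range over the alternatives of 0.000611 to 0.357. Daam2, a formin downstream of Dishevelled, was at 9.72, 9.90 and 9.61 in wild type and at 9.07, 9.50 and 9.35 in SmoM2 (change -0.44, adjusted p = 0.154), with SmoM2 1 the lowest.

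Among 25 intracellular transducers 0 passed in limma. There were 5 lower and 0 higher at an unadjusted p under 0.05, against 7.24% and 3.29% of all genes. Of the 25 changes 20 were below 0 (median -0.10), where 50.8% of all genes were above 0. Under repeated quantile normalization or centring on the 75th percentile 17 of 25 were below 0, with a median of -0.06 in both. Tcf7l2, a DNA-binding partner of beta-catenin, was at 10.85, 10.75 and 10.68 in wild type and at 10.33, 10.56 and 10.37 in SmoM2 (change -0.34, SE 0.08, adjusted p = 0.120). Amer1, which binds Apc at the membrane, was at 10.52, 10.41 and 10.31 in wild type and at 10.08, 10.33 and 10.11 in SmoM2, with SmoM2 2 above wild type 3 (change -0.24, adjusted p = 0.368, and -0.13 with the Y-linked covariate). Lef1, another partner of beta-catenin and named after its value was seen, had a change of -0.20 (adjusted p = 0.384).

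Among 24 genes known as Wnt targets 0 passed in limma, with a median of -0.042. There were 3 higher and 6 lower at an unadjusted p under 0.05, against 3.29% and 7.24% of all genes. The median was -0.0029 with repeated quantile normalization and -0.0023 with centring on the 75th percentile, with 12 of 24 above 0 in both. Prox1, a homeobox gene of several endodermal and vascular lineages, had a change of -0.44 (adjusted p = 0.158), with wild type 3 at 8.29 next to SmoM2 3 at 8.26, and passed without wild type 3 (adjusted p = 0.0257, within a range over the alternatives of 0.0179 to 1.00). Its change was -0.14 with the Y-linked covariate. Bmp4, a ligand that hedgehog signals also induce, was at 12.16, 12.33 and 12.31 in wild type and at 12.61, 12.58 and 12.71 in SmoM2 (change 0.37, SE 0.08, adjusted p = 0.0635), and its groups did not overlap. Axin2, a feedback inhibitor widely used to read beta-catenin activity and named after its value was seen, was at 9.50, 9.48 and 9.48 in wild type and at 9.53, 9.36 and 9.47 in SmoM2. Its change of -0.04 (95% interval -0.20 to 0.12, adjusted p = 0.924) was within the spread of the SmoM2 arrays and its sign was not stable.

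**Figure D4:**
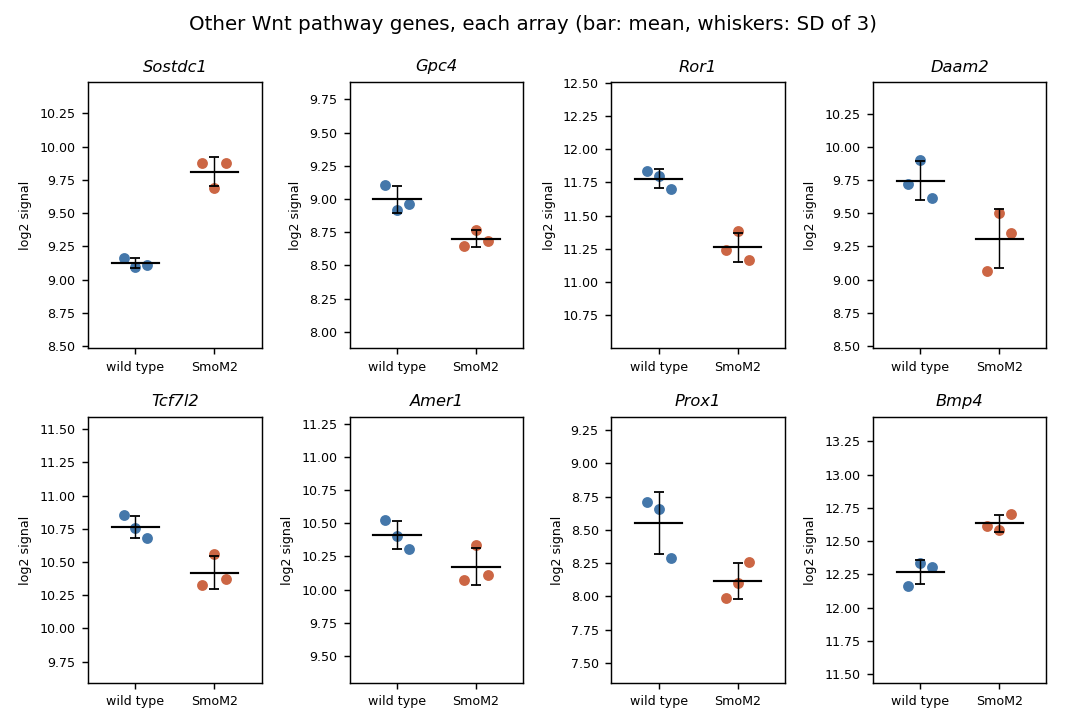
Log2 signal (vertical axis, 2 units in each panel) on each array for 8 other Wnt pathway genes, with wild type in blue and SmoM2 in orange, bars for means and whiskers for the SD of 3 arrays. Sostdc1 (adjusted p = 0.00427) and Ror1 (adjusted p = 0.0210) passed the threshold, and the other 6 did not.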

How the data were processed

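Each array gave 1 column of log2 signal for 35556 probe sets, deposited by the authors after RMA (background correction, quantile normalization and probe set summary), which with affy is named in the submitters' processing notes. Their versions: not given in the sources used here. This step is meant to make array distributions alike and shrinks differences between dim signals. The lowest value was 3.79 and the highest 14.72, with array medians from 8.56 to 8.62. Upper quartiles of the arrays still ran from 10.02 in SmoM2 1 to 10.16 in SmoM2 2.

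Gene symbols came from the platform annotation (23410 probe sets listed, 21789 with 1 symbol and 1621 with several, which name no gene here), and all 48 Wnt genes matched RefSeq gene identifiers. The 2 groups were fitted in limma 3.58.1 (R 4.3.3; linear model with empirical Bayes, Benjamini-Hochberg over 19938 genes, threshold 0.05). Changes are log2 differences, SmoM2 minus wild type, with moderated SE. The steps were tested on simulated data. Genes described in full were those past the threshold, at an unadjusted p under 0.05, or without overlap and changed by at least 0.2, and the largest change in each class. Of each pathway list, up to 4 genes past the threshold or else the 2 largest changes were named. The genes and lists were chosen with earlier results of these data known. TATAAA was searched after the data were seen. Alternatives comprised leaving out arrays singly, a replicate block, a filter on signal, other choices of probe set, scaling, variance priors, array weights, and covariates. The number of arrays limits the precision.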

Additional observations from a re-analysis of the deposited data

How the results depend on the processing

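Of the 48 Wnt genes, 0 were higher and 0 lower past the threshold without each array in turn. With the intensity trend 1 was higher (Lgr4), with the filter at the median signal 1 lower (Dkk1), and with the receptor gene covariate 2 higher (Lgr4 and Rspo3) and 1 lower (Dkk1). The median change was 0.01 to 0.08 without each array and -0.013 with the Y-linked covariate. Over all genes the counts without each array ran from 13 to 63 higher and from 19 to 184 lower. They were 43 and 77 with centring on the 75th percentile, 101 and 235 with the intensity trend, 111 and 232 with array weights estimated gene by gene, 14 and 8 with the Y-linked covariate, and 173 and 556 with the receptor gene covariate, and the filter gave 203 lower. The default array weights stopped before converging, at 0.33 to 6.02, and were not used. They would have given 14 of the 48 past the threshold and 4110 genes in all. Array weights by the other estimator and the receptor gene covariate were chosen after seeing the data.

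Whether replicate numbers pair the samples is not stated. Correlations of deviations were -0.10, 0.52 and 0.06 for numbers 1, 2 and 3, and ran from -0.60 to 0.52 for unequal numbers. They cannot decide it, because deviations within a group are tied to each other. With the replicate block 1 Wnt gene was higher (Rspo3) and 1 lower (Dkk1), 158 and 540 genes of the series were higher and lower, and 4 hedgehog genes, 4 Wnt targets, 2 polarity genes and 1 transducer passed.

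The counts past the threshold in the lists ran without each array from 1 to 2 for the 5 hedgehog genes, from 0 to 1 for Wnt targets and from 0 to 1 for polarity genes. They were 4 hedgehog genes and 2 Wnt targets with array weights, 1 hedgehog gene, 0 polarity and 0 secretion genes with the Y-linked covariate, and 4 targets, 2 polarity, 2 secretion genes and 1 transducer with the receptor gene covariate. Wnt targets had 2 with the filter, 1 with centring on the median and 1 with the intensity trend. The change of Axin2 turned to 0.0013 with repeated quantile normalization and to 0.0030 with centring on the 75th percentile, and ran from -0.076 to 0.012 without each array. Of 609 values for 34 genes, 565 kept sign and call, 28 gained the call, 13 lost it and 3 turned sign. The cause was not tested.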
